A study of Mus musculus with 9 samples.

Results

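Iron and heme handling was described through 9 genes of mouse macrophages, out of 46078 genes in the deposited tables: Tfrc, Trf, Slc11a2, Slc11a1, Slc48a1, Hmox1, Fth1, Ftl1 and Slc40a1. They were chosen by name, with earlier results of these data known, 1 or more for each step from iron uptake to iron export. All 9 passed the filter on low values. RNA was sequenced in 9 libraries from 3 cultures of C57BL/6J mice, each in culture for at least 8 weeks. FLM_G were macrophages from fetal liver of gestational day 15 to 19, kept in 30 ng/ml recombinant mouse GM-CSF with 10% fetal bovine serum. FLM_M came from fetal liver of the same days and were kept in 30% supernatant of L cells, a source of M-CSF, with 20% fetal bovine serum. BMM were macrophages from bone marrow, whose medium is not described in the labels. FLM_G and FLM_M thus differ in growth factor and in serum, and BMM differ from both in tissue of origin and possibly in medium, and these differences cannot be told apart. The 3 libraries of a culture came from wells plated in triplicate, at 250000 cells per well, so p-values measure the spread between wells, which may be technical. The series title names immortal macrophages, and the comparisons ask how the cultures differ.

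Macrophages of spleen and liver take up old red cells, free their heme, and return the iron to the blood. Iron bound to transferrin enters through the transferrin receptor, and heme from phagocytosed cells leaves the phagolysosome through a heme transporter and is opened by heme oxygenase. Iron that is not used is stored in ferritin shells of heavy and light chains or leaves through ferroportin. Much of this is set after transcription: in iron-poor cells the iron regulatory proteins bind a hairpin, the iron-responsive element, which blocks translation when it lies in the 5′ UTR and stabilises the mRNA when it lies in the 3′ UTR. RNA levels of these genes therefore need not follow their proteins, which were not measured here.

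The matches to this element in 4 of the genes are printed because the element is the known link between cellular iron and these RNAs. GENCODE M21 transcripts (GRCm38) were searched on the transcript strand for the loop CAGTGN, not ending in G, on a stem of 5 base pairs (G-T pairs allowed) with an unpaired C before the stem. Each sequence runs 5′ to 3′ over 30 bases within 1 exon, with the 6-base loop in capitals.
Fth1, 5′ UTR, chr19:9982731-9982760, plus strand: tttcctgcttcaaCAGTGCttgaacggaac
Ftl1, 5′ UTR, chr7:45459779-45459808, minus strand: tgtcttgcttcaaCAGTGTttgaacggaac
Slc40a1, 5′ UTR, chr1:45925465-45925494, minus strand: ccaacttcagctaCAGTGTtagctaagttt
Tfrc, 3′ UTR, chr16:32631218-32631247, plus strand: taattatcggaagCAGTGCcttccataatt
Tfrc, 3′ UTR, chr16:32631597-32631626, plus strand: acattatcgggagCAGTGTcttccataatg
Tfrc, 3′ UTR, chr16:32631662-32631691, plus strand: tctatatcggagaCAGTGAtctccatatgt
Tfrc, 3′ UTR, chr16:32631709-32631738, plus strand: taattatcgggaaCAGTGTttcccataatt

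The ferritin chains and ferroportin each held 1 match in the 5′ UTR, and Tfrc held 4 in the 3′ UTR. A match was present in the 5′ UTR of 21 of 21899 coding genes (0.0959%) and in the 3′ UTR of 98 (0.448%). The other 5 genes had no match, which says only that these letters and this stem were not found in their annotated UTRs.

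Levels are FPKM, a measure of reads that takes account of transcript length and sequencing depth, further scaled between libraries by TMM factors of 0.80 to 1.14. Without that scaling the median gene was 0.34 lower in FLM_G than in BMM and 0.39 lower in FLM_G than in FLM_M on the log2 scale, and 0.05 higher in FLM_M than in BMM. The depth that best fitted the steps in the low FPKM values was 28750000 to 35910000 reads per library. This is an estimate, with 39.3% to 43.5% of those values within 0.1 read of a whole step. With it and the longest coding transcript, Slc40a1, the lowest of the 9 genes, rested on about 186 to 565 reads per library. Fth1, the highest, rested on about 544000 to 1400000. Libraries of 1 culture correlated at 0.986 to 0.992 over log2 FPKM and libraries of different cultures at 0.785 to 0.936. All 8 macrophage markers were at 1 FPKM or more in every culture, and they did not share a direction: Csf1r, the M-CSF receptor, had 118.8 ± 4.7 scaled FPKM in FLM_G, 432.6 ± 28.3 in FLM_M and 368.0 ± 7.6 in BMM (SD, n = 3). Lyz2, lysozyme, had 25600 in FLM_G, 3652 in FLM_M and 6408 in BMM, and Mertk, a receptor for dying cells, had 64.0 in FLM_G, 10.5 in FLM_M and 9.11 in BMM. Summed markers of fibroblasts and of neutrophils and mast cells stayed at or below 0.174 scaled FPKM in every library, and those of endothelium were at 4.25 to 4.45 in FLM_G, 6.50 to 8.49 in FLM_M and 1.35 to 1.47 in BMM, mainly Cdh5 in FLM_G and Kdr in FLM_M. Y-linked genes were present in BMM and Xist in FLM_G and FLM_M, so the sex of the source animals went with tissue of origin; its part in the results cannot be told apart.

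The iron and heme genes moved in different directions rather than as a block. With limma on log2(FPKM + 1), calling genes whose adjusted p (Benjamini-Hochberg) was under 0.05, 4 of the 9 were higher and 4 lower in FLM_G than in BMM, where 68% of all 11952 genes tested were called (33.8% higher, 34.1% lower). In FLM_M against BMM 3 were higher and 5 lower, against 44.6% of all genes (22.7% higher, 21.9% lower). In FLM_G against FLM_M 4 were higher and 5 lower, against 70.6% of all genes (35.5% higher, 35.1% lower); without scaling the split was 3 higher and 6 lower, and with quantile normalization 2 higher and 6 lower. Since calls were this common among all genes, the number of calls says little about these 9, and the size of the differences is the better description. The median absolute log2 difference of the 9 genes was 1.40 in FLM_G against BMM, 0.66 in FLM_M against BMM and 1.38 in FLM_G against FLM_M. The medians of all genes were 0.39, 0.22 and 0.44. The 9 genes were chosen with earlier results of these data known, and log2(FPKM + 1) understates the differences of low genes. These medians and the shares below therefore describe the 9 genes and are no test of them against all genes. A call with at least a 2-fold change was made for 5, 2 and 5 of the 9 in these comparisons, where 18.8%, 7.03% and 21.4% of all genes had one. The libraries of the compared cultures did not overlap in 8 of the 9 genes in each comparison, against 73.2%, 57.3% and 72.4% of all genes. FLM_G and FLM_M were each set against the same BMM libraries.

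**Figure D1:**
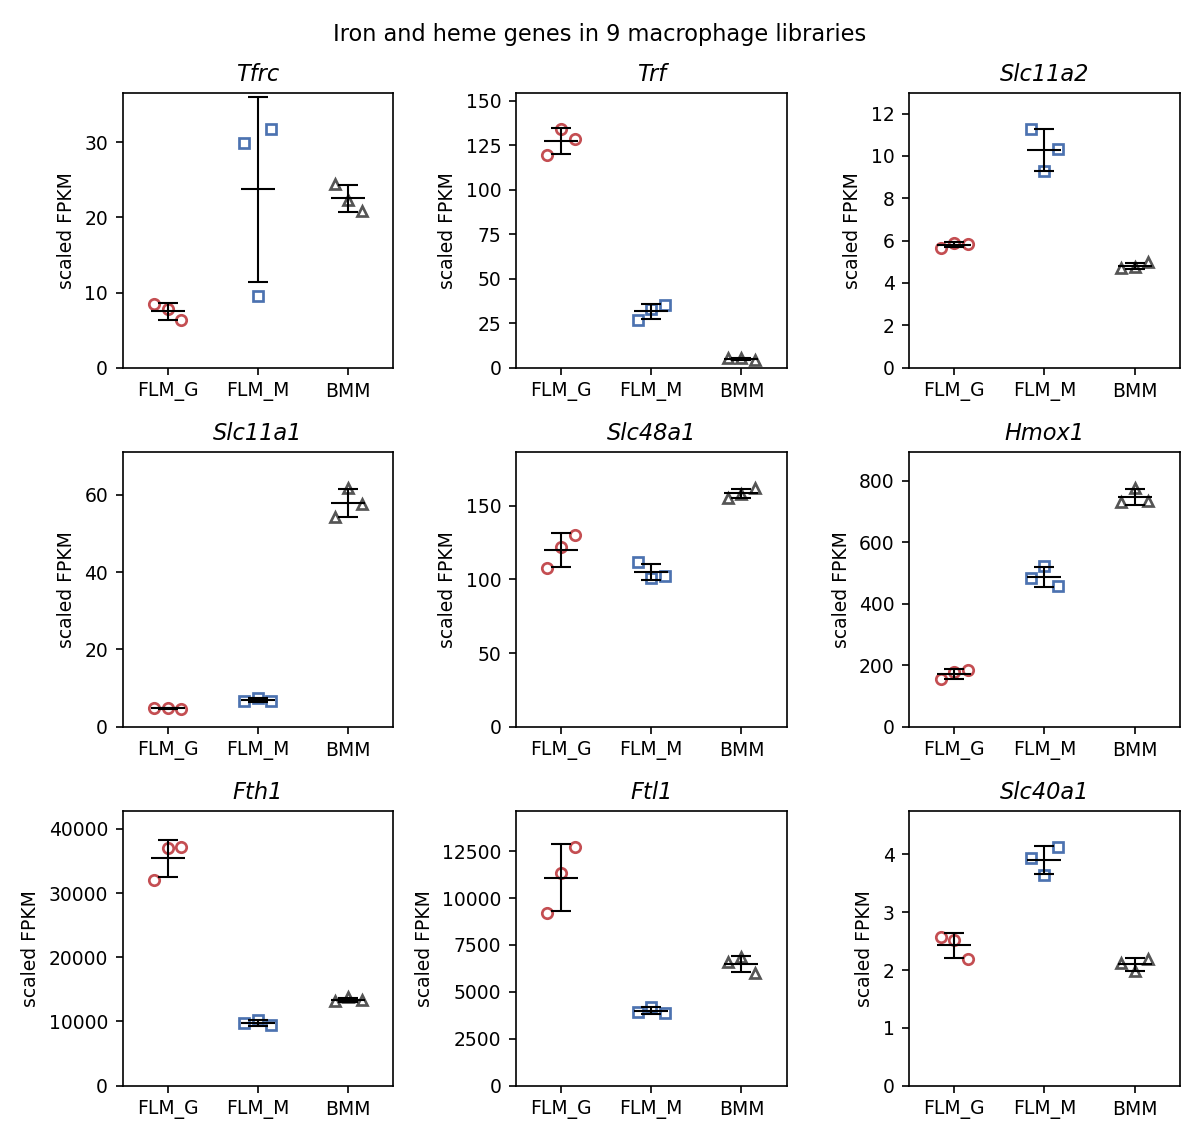
Scaled FPKM (y axis, linear, from 0) of the 9 iron and heme genes in each library of FLM_G, FLM_M and BMM; points are libraries, and the black bars are the mean and SD of 3 libraries. Trf is highest in FLM_G (119 to 134), Slc11a1 and Hmox1 are highest in BMM (54.4 to 61.7 and 730 to 776), and Tfrc has 1 FLM_M library at 9.58 beside others at 29.8 and 31.7.

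Among the genes for uptake of transferrin-bound iron, the carrier differed most. In bulk RNA, fewer cells expressing a gene and less RNA per cell cannot be told apart, here and below. Trf encodes transferrin, the iron carrier of plasma that hepatocytes mainly make, and lies at chr9:103204001-103230444 on the minus strand (GRCm38). It had 119, 134 and 129 scaled FPKM in the FLM_G libraries, 27.0, 32.9 and 35.0 in FLM_M, and 5.27, 5.26 and 4.51 in BMM. The cultures stood in the order FLM_G, FLM_M, BMM with wide gaps and no overlap. Trf was 25.4-fold higher in FLM_G than in BMM (log2 difference 4.42, SE 0.10, adjusted p = 1.1e-09) and 4.02-fold higher in FLM_G than in FLM_M (1.98, SE 0.10, adjusted p = 1.88e-07). In FLM_M it was 6.32-fold higher than in BMM (2.44, SE 0.10, adjusted p = 1.48e-07). Hepatocyte markers were near 0: none of 8 was at 1 FPKM or more in FLM_G and 1 of 8 was in FLM_M and in BMM, and their summed level was 0.790 to 1.13 in FLM_G, 2.31 to 2.94 in FLM_M and 2.14 to 2.57 in BMM. Alb and the other defining hepatocyte genes except Afp were listed at 0 in FLM_G. Of the 101-base stretches of the longest Trf transcript, 77.3% are shared with Gm20425, an annotated readthrough gene that was listed at 0 in all 9 libraries, so reads of the pair could not be told apart by sequence. The deposited counts hold a small and uneven share of the reads, so here and below they cannot decide whether a difference in FPKM holds. They held 0 to 14 reads of Trf per library, and edgeR did not test it on them. DESeq2 called Trf in no comparison. Its log2 differences by DESeq2 were 2.97 in FLM_G against BMM (adjusted p = 0.0619) and 0.59 in FLM_M against BMM (adjusted p = 0.892). In FLM_G against FLM_M DESeq2 gave 2.38 (adjusted p = 0.0713).

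Tfrc, the transferrin receptor that carries loaded transferrin into endosomes, was low in FLM_G. The gene lies at chr16:32608920-32632794 on the plus strand and carries the 4 matches printed above. It had 8.47, 7.85 and 6.28 scaled FPKM in FLM_G, 29.8, 9.58 and 31.7 in FLM_M, and 24.5, 22.3 and 20.8 in BMM. All FLM_G libraries lay below all others, and replicate 2 of FLM_M lay far below its own group and below BMM. Tfrc fell in FLM_G to 7.53 ± 1.13, against 22.5 ± 1.8 in BMM (SD, n = 3; log2 difference -1.47, SE 0.38, adjusted p = 0.00777) and against 23.7 ± 12.3 in FLM_M (-1.38, SE 0.38, adjusted p = 0.01). Between FLM_M and BMM it did not pass (-0.09, 95% interval -0.96 to 0.77, adjusted p = 0.874), and this rests on 1 library: without replicate 2 of FLM_M the difference was 0.44 with an adjusted p of 0.0198. In the deposited counts, where that library did not stand apart, Tfrc had 9, 7 and 2 reads in FLM_G, 67, 45 and 42 in FLM_M, and 10, 23 and 16 in BMM, and edgeR on these counts called it higher in FLM_M than in BMM (log2 difference 1.10, adjusted p = 0.00632). DESeq2 on the same counts did not call that difference (1.03, adjusted p = 0.109). The fall in FLM_G against BMM was called by edgeR (-1.10, adjusted p = 0.0424) and not by DESeq2 (-1.18, adjusted p = 0.108).

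Slc11a2 encodes DMT1, which moves iron out of the endosome into the cytosol, and lies at chr15:100387898-100425072 on the minus strand. It had 5.66, 5.90 and 5.86 scaled FPKM in FLM_G, 11.3, 9.29 and 10.3 in FLM_M, and 4.73, 4.75 and 4.98 in BMM. FLM_M was thus the high culture, while FLM_G and BMM lay close together without overlap. The level was 2.13-fold higher in FLM_M than in BMM (log2 difference 0.95, SE 0.07, adjusted p = 6.32e-06) and 1.77-fold lower in FLM_G than in FLM_M (-0.73, SE 0.07, adjusted p = 1.45e-05; -1.15 without scaling). On the deposited counts, at 0 to 13 reads per library, DESeq2 called neither (adjusted p = 0.32 and 0.275). The difference of FLM_G from BMM was 0.23 (SE 0.07, adjusted p = 0.0166), but -0.13 without scaling (adjusted p = 0.124) and no longer called with upper-quartile scaling (adjusted p = 0.058) or without BMM replicate 1 or 2 (adjusted p = 0.0556 and 0.0571). Gene-level FPKM do not separate its 6 coding transcripts, and Gm5475 on the other strand of the locus was listed at 0 in all libraries.

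Slc11a1 had the largest fall in both fetal liver cultures among the 9 genes. It encodes NRAMP1, the metal transporter of the phagosome membrane and a paralog of DMT1, and C57BL/6 mice are known to carry an allele that impairs the protein. The gene lies at chr1:74375195-74386062 on the plus strand. It had 4.75, 4.86 and 4.66 scaled FPKM in FLM_G, 6.67, 7.50 and 6.70 in FLM_M, and 54.4, 61.7 and 57.7 in BMM. Both fetal liver cultures lay far below every BMM library, and the FLM_G libraries also lay below all FLM_M libraries. Slc11a1 was 12.2-fold lower in FLM_G than in BMM (log2 difference -3.35, SE 0.06, adjusted p = 3.56e-10) and 8.33-fold lower in FLM_M than in BMM (-2.89, SE 0.06, adjusted p = 3.66e-09). FLM_G was 1.46-fold lower than FLM_M (-0.46, SE 0.06, adjusted p = 0.000163; -0.87 without scaling). On the deposited counts, with 0 to 1 read per library in FLM_G, 6 to 9 in FLM_M and 29 to 41 in BMM, edgeR and DESeq2 called it lower in all 3 comparisons, with log2 differences by edgeR of -6.06 in FLM_G against BMM, -2.73 in FLM_M against BMM and -3.33 in FLM_G against FLM_M.

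The paralogs thus stood in opposite proportion, as the plot of ratios by library shows. The FPKM ratio of Slc11a1 to Slc11a2 was 0.795 to 0.840 in FLM_G, 0.592 to 0.807 in FLM_M and 11.5 to 13.0 in BMM. The ratio did not overlap between either fetal liver culture and BMM (exact two-sided permutation test, p = 0.1 each, the smallest that 3 against 3 libraries allow). Between FLM_G and FLM_M the ratios overlapped (exact permutation p = 0.2).

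RNA of the heme transporter Slc48a1 and of heme oxygenase 1 was lower in both fetal liver cultures than in BMM. Slc48a1 encodes HRG1, the transporter that brings heme out of the phagolysosome, and lies at chr15:97778520-97792692 on the plus strand. It had 107.5, 122.1 and 130.2 scaled FPKM in FLM_G, 111.6, 101.0 and 102.6 in FLM_M, and 155.4, 157.8 and 161.9 in BMM. All 6 fetal liver libraries lay below all BMM libraries, and FLM_G and FLM_M overlapped. Slc48a1 fell by 0.40 on the log2 scale in FLM_G against BMM (SE 0.07, adjusted p = 0.00113; -0.82 without scaling and -0.69 with quantile normalization) and by 0.59 in FLM_M against BMM (SE 0.07, adjusted p = 0.000216). Neither fall was called on the deposited counts (edgeR, adjusted p = 0.43 and 0.76). FLM_G was higher than FLM_M by 0.19 (SE 0.07, adjusted p = 0.0461), a call that turned to -0.30 without scaling (adjusted p = 0.00333), so no order of these cultures is given. Hdac7 overlaps the gene on the other strand and had 0.018 scaled FPKM in FLM_G, 3.21 in FLM_M and 2.33 in BMM.

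Hmox1 encodes heme oxygenase 1, the inducible enzyme that opens heme and frees its iron, and lies at chr8:75093621-75100589 on the plus strand. It had 154, 178 and 185 scaled FPKM in FLM_G, 482, 523 and 459 in FLM_M, and 730, 776 and 734 in BMM. The 3 cultures were separate, with FLM_G lowest and BMM highest. Hmox1 was 4.33-fold lower in FLM_G than in BMM (log2 difference -2.11, SE 0.08, adjusted p = 2.94e-08) and 2.83-fold lower in FLM_G than in FLM_M (-1.50, SE 0.08, adjusted p = 2.68e-07). In FLM_M it was 1.53-fold lower than in BMM (-0.61, SE 0.08, adjusted p = 0.000278), a call not made on the deposited counts (edgeR, adjusted p = 0.308). Its constitutive paralog Hmox2 differed less, with 38.3 scaled FPKM in FLM_G, 48.7 in FLM_M and 51.5 in BMM, and the ratio of Hmox1 to Hmox2 was 4.11 to 4.81 in FLM_G, 9.41 to 10.6 in FLM_M and 14.1 to 15.1 in BMM (exact two-sided permutation test, p = 0.1 for each pair of cultures).

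**Figure D2:**
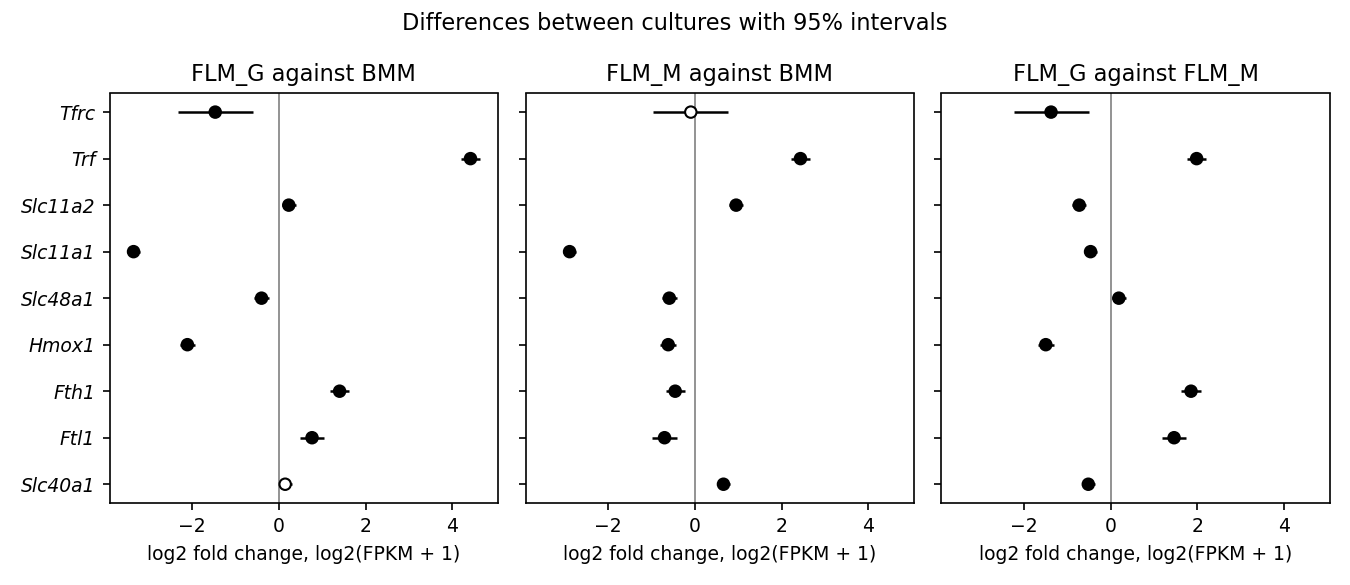
Log2 fold changes of the 9 genes (x axis, on log2(FPKM + 1)) in FLM_G against BMM, FLM_M against BMM and FLM_G against FLM_M, with 95% intervals from limma over 9 libraries; filled points were called at an adjusted p under 0.05 and open points were not. Trf lies at 4.42, 2.44 and 1.98 and Slc11a1 at -3.35, -2.89 and -0.46, while the wide interval of Tfrc comes with its spread in FLM_M; without scaling Slc11a2 in FLM_G against BMM and Slc48a1 in FLM_G against FLM_M change sign, and with quantile normalization Ftl1 does in both FLM_G comparisons.

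The ferritin chains were among the most abundant RNAs of all 3 cultures, and Fth1 was highest in FLM_G. Fth1, at chr19:9980598-9985098 on the plus strand, encodes the heavy chain, which oxidises iron as it enters the shell. It had 32111, 36948 and 37141 scaled FPKM in FLM_G, 9688, 10282 and 9408 in FLM_M, and 13165, 13769 and 13271 in BMM. The FLM_G libraries lay far above the others, and the FLM_M libraries lay below those of BMM. Fth1 ranked 1 among all genes in the FLM_G libraries and 2 in every FLM_M and BMM library. It was 2.64-fold higher in FLM_G than in BMM (log2 difference 1.40, SE 0.10, adjusted p = 2.08e-06) and 3.62-fold higher in FLM_G than in FLM_M (1.85, SE 0.10, adjusted p = 2.58e-07). Quantile normalization, which replaces levels by ranks, reduced both differences to 0.23. Without scaling the FPKM of Fth1 lay closer together, at 26377, 29848 and 29754 in FLM_G, 11063, 11651 and 10655 in FLM_M, and 14379, 14999 and 14319 in BMM. As a share of all FPKM of a library Fth1 made up 5.04% to 5.59% in FLM_G, 2.68% to 2.91% in FLM_M and 3.43% to 3.68% in BMM. The fall in FLM_M against BMM (-0.45, SE 0.10, adjusted p = 0.00519) was not called without the filter on low values (adjusted p = 0.106), with quantile normalization (a difference of 0, at equal ranks) or by edgeR on the deposited counts (adjusted p = 0.876).

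Ftl1 encodes the light chain, which helps iron mineralise inside the shell, and lies at chr7:45457944-45459884 on the minus strand. It had 9187, 11346 and 12708 scaled FPKM in FLM_G, 3920, 4204 and 3849 in FLM_M, and 6576, 6841 and 6029 in BMM. The order was FLM_G, BMM, FLM_M from high to low, without overlap. It was higher in FLM_G by 0.76 against BMM (SE 0.12, adjusted p = 0.00056) and by 1.46 against FLM_M (SE 0.12, adjusted p = 6.79e-06), and lower in FLM_M than in BMM by a log2 difference of -0.70 (SE 0.12, adjusted p = 0.00176). The size and direction hang on the scaling: without it FLM_G was higher by 0.34 than BMM (adjusted p = 0.0267) and by 0.97 than FLM_M, while quantile normalization gave -0.80 against BMM and -0.53 against FLM_M, since Ftl1 ranked 10 to 14 in FLM_G, 5 to 8 in FLM_M and 4 to 5 in BMM. As a share of all FPKM of a library it overlapped between FLM_G (1.44% to 1.87%) and BMM (1.56% to 1.83%), with 1.10% to 1.18% in FLM_M. The fall in FLM_M was not called with quantile normalization (adjusted p = 0.0852) or by edgeR on the deposited counts (adjusted p = 0.271).

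Reads of Ftl1 may be divided with copies of the gene. Of its 101-base stretches, 60% are found also in Ftl1-ps1, Ftl2-ps, Gm15590 or Gm22133, against 0.502% for Fth1 and none for Tfrc, Slc11a2, Slc11a1, Slc48a1, Hmox1 and Slc40a1. The row named Ftl2, a processed pseudogene on chromosome 4 that GENCODE names Ftl2-ps, had 952 ± 74 scaled FPKM in FLM_G, 406 ± 13 in FLM_M and 657 ± 36 in BMM (SD, n = 3), or 8.68%, 10.2% and 10.2% of Ftl1. How the reads were divided between Ftl1 and its copies was not tested, so the levels of Ftl1 are uncertain.

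Heavy chain RNA outweighed light chain RNA in every library, and more so in FLM_G. The ratio of Fth1 to Ftl1 was 2.92 to 3.50 in FLM_G, 2.44 to 2.47 in FLM_M and 2.002 to 2.201 in BMM, without overlap (exact two-sided permutation test, p = 0.1 for each pair of cultures, the smallest possible). With Ftl2 added to Ftl1 the ratios were 2.71 to 3.19 in FLM_G, 2.21 to 2.24 in FLM_M and 1.83 to 1.98 in BMM. These ratios do not depend on the scaling between libraries. The chains together made up 6.49% to 7.33% of all FPKM in FLM_G, 3.77% to 4.09% in FLM_M and 4.99% to 5.51% in BMM.

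**Figure D3:**
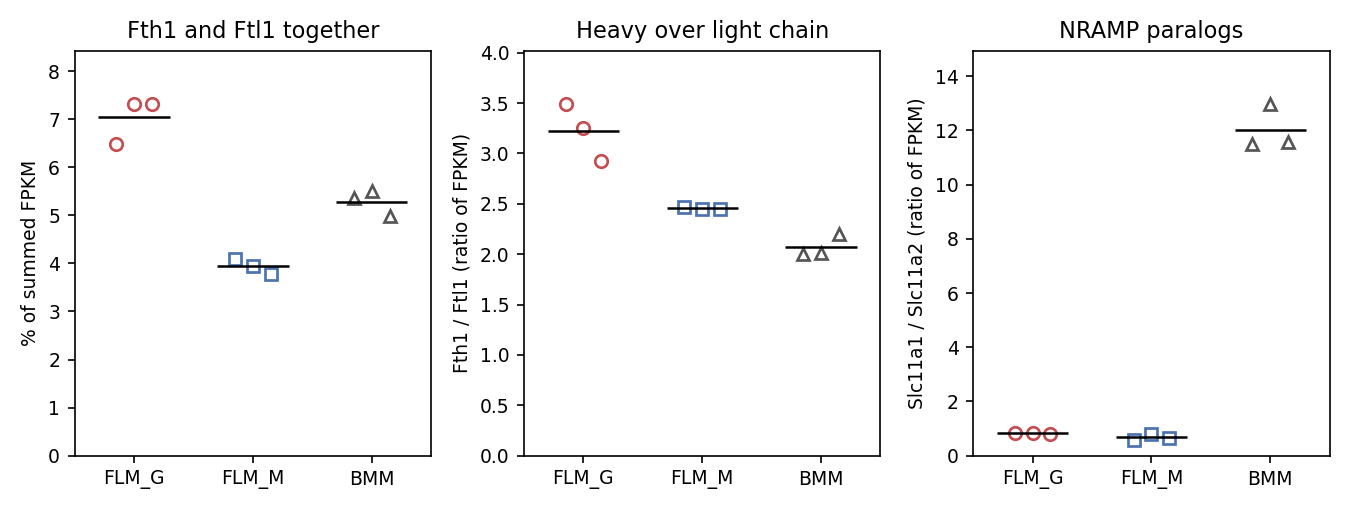
Share of Fth1 and Ftl1 in the summed FPKM (%), FPKM ratio of Fth1 to Ftl1, and FPKM ratio of Slc11a1 to Slc11a2 in each library of FLM_G, FLM_M and BMM; points are libraries, lines are means, and axes start at 0. The ferritin ratio averages 3.23 in FLM_G, 2.45 in FLM_M and 2.07 in BMM, and the ratio of the transporters is below 1 in FLM_G and FLM_M and above 11 in BMM.

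Slc40a1 encodes ferroportin, the exporter that returns iron to the blood, and lies at chr1:45908068-45926523 on the minus strand. It was the lowest of the 9 genes in every culture, with 2.58, 2.52 and 2.18 scaled FPKM in FLM_G, 3.94, 3.64 and 4.12 in FLM_M, and 2.13, 1.98 and 2.20 in BMM. FLM_M was highest without overlap, and FLM_G and BMM overlapped. Slc40a1 was 1.86-fold higher in FLM_M than in BMM (log2 difference 0.66, SE 0.07, adjusted p = 6.1e-05) and 1.61-fold lower in FLM_G than in FLM_M (-0.52, SE 0.07, adjusted p = 0.00012; -0.87 without scaling). The difference of FLM_G from BMM did not pass (0.14, 95% interval -0.01 to 0.30, adjusted p = 0.0871), and without FLM_G replicate 3 it was 0.21 with an adjusted p of 0.0267. On the deposited counts the call in FLM_M against BMM was made by edgeR and not by DESeq2 (adjusted p = 0.351), and the one in FLM_G against FLM_M by neither (edgeR, adjusted p = 0.0602).

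The levels can also be read across the chain in 1 culture. In FLM_G the heavy chain of ferritin and transferrin were high while the receptor and heme oxygenase were low. The phagosome transporter Slc11a1 was low in both fetal liver cultures, at 4.76 scaled FPKM in FLM_G and 6.96 in FLM_M, against 57.9 in BMM. In FLM_M the importer Slc11a2 and the exporter Slc40a1 were at their highest. BMM had the most Hmox1, Slc48a1 and Slc11a1. Against a change of 1.5-fold rather than 0, which is a stricter test, calls were left for Trf, Slc11a1, Hmox1 and Fth1 in FLM_G against BMM, for Trf, Slc11a1 and Slc11a2 in FLM_M against BMM, and for Trf, Hmox1, Fth1 and Ftl1 in FLM_G against FLM_M.

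Genes whose pattern over the 9 libraries came closest were found by the root mean square difference of centred log2 values. For Fth1 these were Slc29a1, a nucleoside transporter (0.04), and Iah1 (0.06), and for Ftl1 the ribosomal gene Rplp1 (0.08) and Cox7a2l (0.09). For Hmox1 they were Tnfrsf11a, the receptor RANK (0.11), and Plekho1 (0.13). For Trf they were the fatty acid binding gene Fabp5 (0.15) and S100a8 (0.18), with 614.3 and 53.3 scaled FPKM in FLM_G, 132.3 and 11.0 in FLM_M, and 29.0 and 1.94 in BMM. Slc11a1 lay nearest to Uchl1 (0.29) and Ckap4 (0.33), and Tfrc to Tor1aip1 (0.28) and Smc2 (0.37). The 3 genes whose culture means spanned less than 1 on the log2 scale were not searched.

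The rest of the pathway was described by 65 further genes in 8 lists, of which 47 passed the filter. In FLM_G against BMM 20 were higher and 17 lower, in FLM_M against BMM 11 were higher and 14 lower, and in FLM_G against FLM_M 20 were higher and 13 lower; without scaling the splits were 13 and 26, 14 and 11, and 12 and 25. Among all genes tested, 68%, 44.6% and 70.6% were called in these comparisons. Their median absolute log2 differences of 0.47, 0.24 and 0.46 lay close to those of all genes given above. Named members are those with the largest called change of their list.

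Of heme synthesis, the gene of the first step differed most. Alas1 encodes the rate-limiting enzyme of heme synthesis outside red cells, and had 97.2 ± 5.8 scaled FPKM in FLM_G, 17.1 ± 1.4 in FLM_M and 12.5 ± 0.7 in BMM (SD, n = 3). It was higher in FLM_G than in BMM by a log2 difference of 2.86 (SE 0.07, adjusted p = 2.54e-09). In FLM_M it was higher than in BMM by 0.42 (SE 0.07, adjusted p = 0.00161). On the counts the latter call was made by edgeR (adjusted p = 0.0371) and not by DESeq2 (adjusted p = 0.174). Of the 8 tested genes of the list, Alas1 included, 2 were higher and 3 lower in FLM_G than in BMM, a share called near the 68% of all genes. Among them were Alad at 7.42 scaled FPKM in FLM_G, 11.9 in FLM_M and 10.4 in BMM, Ppox at 2.97 in FLM_G, 5.09 in FLM_M and 4.36 in BMM, and Cpox at 4.33 in FLM_G, 4.01 in FLM_M and 5.67 in BMM. The call of Cpox in FLM_G against BMM was marginal (limma, adjusted p = 0.0488). It was lost without the filter (adjusted p = 0.0823), with a pseudocount of 0.1 (adjusted p = 0.0526) and on the 6 libraries compared (adjusted p = 0.0768). Alas2, the red cell form of the first enzyme, was listed at 0 in every library. Of 10 erythroid markers 1, the receptor Epor, reached 1 FPKM in FLM_G and FLM_M and none did in BMM; their summed level was 4.21 to 6.05 in FLM_G, 2.32 to 2.81 in FLM_M and 0.015 to 0.113 in BMM, and 7, 5 and 5 of them were listed at 0.

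Of the 6 genes of iron sensing and ferritin turnover, 4 were higher and none lower in FLM_G than in BMM, where 68% of all genes were called and 33.8% were higher. Ncoa4, the receptor that takes ferritin to the lysosome, had 74.9 ± 7.4 scaled FPKM in FLM_G, 14.8 ± 2.8 in FLM_M and 10.4 ± 0.8 in BMM (SD, n = 3). It was 7.23-fold higher in FLM_G than in BMM (log2 difference 2.74, SE 0.13, adjusted p = 1.62e-07) and 5.05-fold higher in FLM_G than in FLM_M (2.27, adjusted p = 5.02e-07). The differences were much smaller on the deposited counts: in FLM_G against BMM edgeR gave 0.95 (adjusted p = 0.0222) and DESeq2 0.87 (adjusted p = 0.152), and in FLM_G against FLM_M edgeR gave 0.61 (adjusted p = 0.108) and DESeq2 0.64 (adjusted p = 0.282). Aco1, the iron regulatory protein IRP1, was 2.39-fold higher in FLM_G than in BMM (28.1 and 11.7 scaled FPKM, adjusted p = 9.36e-08; log2 difference 0.79 without scaling, against 1.19 with it) and had 11.6 in FLM_M. On the counts edgeR called Aco1 in FLM_G against BMM (1.38, adjusted p = 0.0132) and DESeq2 did not (1.33, adjusted p = 0.123). Ireb2, the regulator IRP2, differed less, with 10.2 scaled FPKM in FLM_G, 8.47 in FLM_M and 11.1 in BMM, and Pcbp2, an iron chaperone that loads ferritin, had 152.5, 175.2 and 145.0.

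Of the 8 listed genes of heme and hemoglobin transport 6 were tested. All 6 were called in FLM_G against BMM, 4 higher and 2 lower, beside 68% of all genes. Flvcr2 and Hp passed the filter only through their level in FLM_G, so this share is no result about the list. Flvcr2, a transporter of the FLVCR family, had 23.8 ± 1.3 scaled FPKM in FLM_G (SD, n = 3). It was listed at 0 in every FLM_M and BMM library, so no fold of FPKM is given. The 0 values can be failed estimates. On the deposited counts edgeR called it higher in FLM_G than in BMM (log2 difference 3.16, adjusted p = 1.53e-07) and than in FLM_M (4.50, adjusted p = 7.02e-11). DESeq2 also called both (3.24 and 4.69). Neither called FLM_M against BMM (edgeR -1.34, adjusted p = 0.248). Hp, haptoglobin, which binds free hemoglobin in plasma, had 16.8 to 19.1 scaled FPKM in FLM_G, 0 to 0.037 in FLM_M and 0.040 to 0.138 in BMM. Abcg2, an exporter that accepts heme and porphyrins, was 9.28-fold higher in FLM_G than in BMM (17.3 and 1.86 scaled FPKM, adjusted p = 8.61e-10) and 3.15-fold higher in FLM_M than in BMM (5.87 and 1.86, adjusted p = 3.07e-07). Lrp1, the receptor for heme bound to hemopexin, was lower in both fetal liver cultures. It had 64.5 scaled FPKM in FLM_G, 61.0 in FLM_M and 118.2 in BMM. The log2 differences from BMM were -0.86 and -0.95 (limma, adjusted p = 3.09e-05 and 3.72e-05). On the deposited counts edgeR called neither (adjusted p = 0.131 and 0.0679), and DESeq2 called both (adjusted p = 0.0296 and 0.00323).

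The biliverdin reductases differed in opposite directions. Blvra was higher in FLM_G (59.8 scaled FPKM) and FLM_M (55.5) than in BMM (40.9), and Blvrb was lower in FLM_G (74.5) and FLM_M (68.6) than in BMM (103.4), with adjusted p of 0.000206 and 0.00155 for Blvra and 0.00124 and 0.000607 for Blvrb. Without scaling Blvra was not called in FLM_G against BMM (0.12, adjusted p = 0.173). On the counts DESeq2 called neither gene, and edgeR called only Blvra in FLM_M against BMM (adjusted p = 0.00784). In uptake and reduction of iron, Mcoln1, a channel of the lysosome that passes iron, had 24.8 scaled FPKM in FLM_G, 14.2 in FLM_M and 11.9 in BMM, and Steap3, the ferrireductase of the endosome, had 10.0 in FLM_G, 14.4 in FLM_M and 15.0 in BMM. Hfe, the hemochromatosis gene, was the only tested gene of the hepcidin list, at 11.1 in FLM_G, 15.6 in FLM_M and 15.2 in BMM, and was lower in FLM_G than in BMM (log2 difference -0.42, adjusted p = 5.43e-05; -0.81 without scaling), a call made neither by edgeR (adjusted p = 0.444) nor by DESeq2 (adjusted p = 0.61) on the counts, nor against a 1.5-fold change.

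Among 11 tested mitochondrial genes 6 were higher and 3 lower in FLM_G than in BMM, where 33.8% of all genes were higher and 34.1% lower. The scaffold of iron-sulfur cluster assembly, Iscu, had 36.8 scaled FPKM in FLM_G, 21.2 in FLM_M and 14.8 in BMM, and its partner Lyrm4 had 20.1 in FLM_G, 10.4 in FLM_M and 9.85 in BMM. Abcb10, a mitochondrial transporter, had 7.0 in FLM_G, 2.37 in FLM_M and 3.39 in BMM, and the iron importer Slc25a37, mitoferrin 1, had 5.37 in FLM_G, 13.5 in FLM_M and 11.7 in BMM. Of the regulators, Epas1, the hypoxia factor HIF-2 alpha, had 57.4 ± 1.8 scaled FPKM in FLM_G, 16.5 ± 2.5 in FLM_M and 1.72 ± 0.04 in BMM (SD, n = 3), with log2 differences from BMM of 4.42 (adjusted p = 6.5e-10) and 2.67 (adjusted p = 5.4e-08). Hif1a was lower in both, with 10.5 scaled FPKM in FLM_G, 9.43 in FLM_M and 16.7 in BMM (adjusted p = 0.00868 and 0.00671), which edgeR did not call on the counts (adjusted p = 0.113 and 0.365). Among the small Maf partners, Mafk had 11.0 in FLM_G, 9.30 in FLM_M and 6.31 in BMM, and Mafg had 16.8 in FLM_G, 19.4 in FLM_M and 25.6 in BMM.

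**Figure D4:**
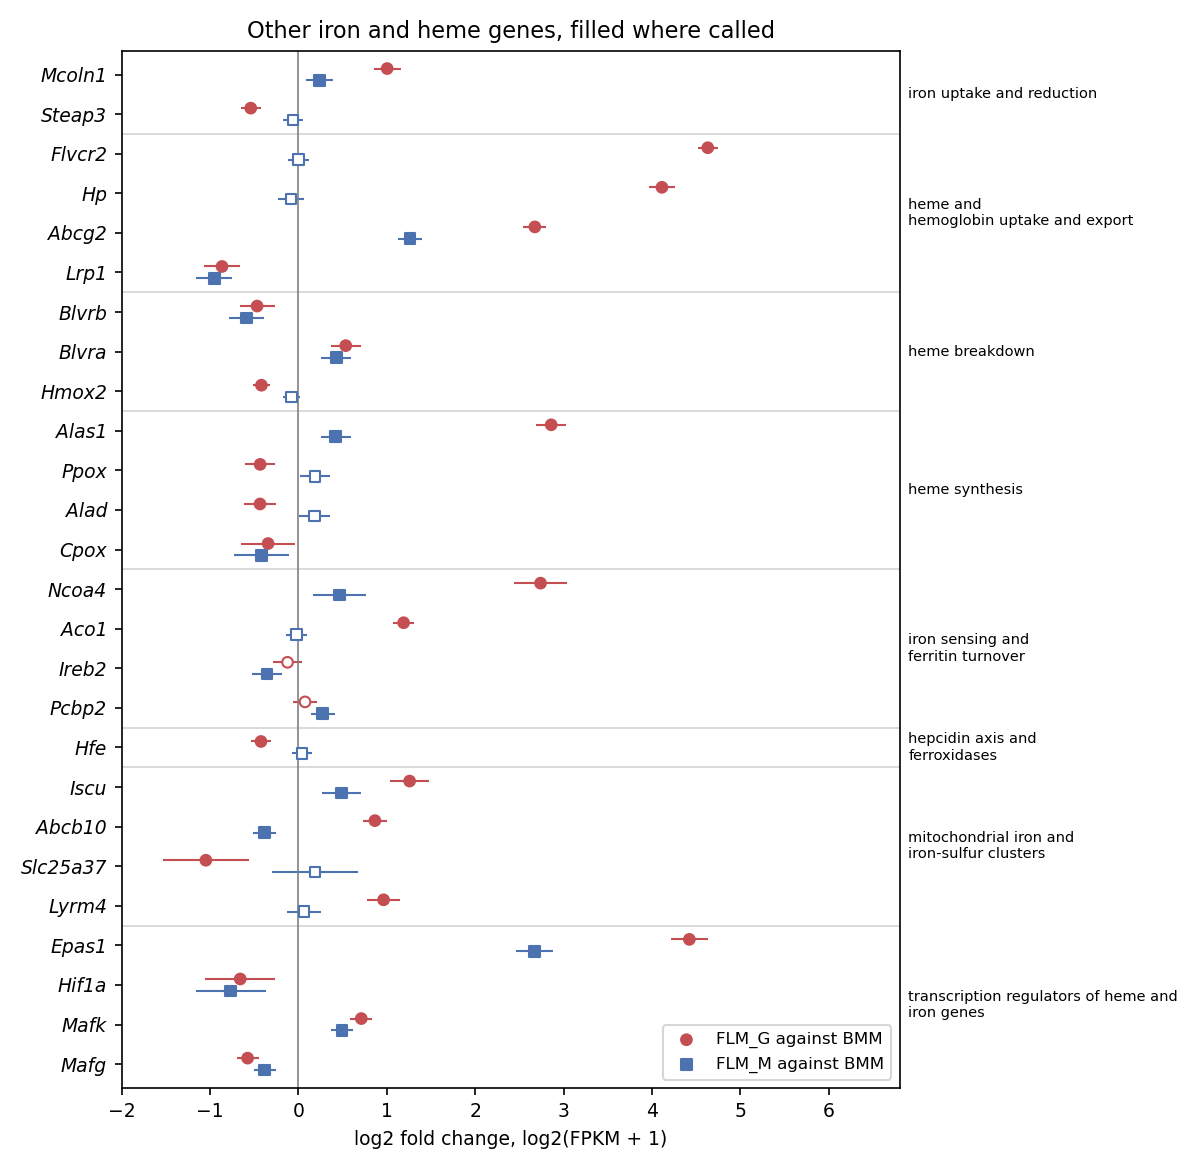
Log2 fold changes (x axis, on log2(FPKM + 1)) of 26 other iron and heme genes, grouped by list, in FLM_G against BMM (circles) and FLM_M against BMM (squares), with 95% intervals from limma; filled symbols were called at an adjusted p under 0.05. Epas1, Abcg2, Alas1 and Ncoa4 lie right of 0 in both comparisons, and Hp lies at 4.11 in the first and -0.08 in the second; both comparisons share the BMM libraries, and Pcbp2, not called in FLM_G, changes sign there without scaling (-0.35) and with quantile normalization (-0.25).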

How the data were processed

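Per the labels, stranded TruSeq mRNA libraries were read for 101 cycles from 1 end. The submitters' processing notes name, without versions, DESeq2, StringTie, HISAT2, cutadapt, FastQC and bcl2fastq, and as builds GRCm38 and mm10. The authors deposited FPKM per gene, used as the main measure, and whole-number read counts, used only as an alternative because they sum to 782400 to 1170813 per library, against the 28750000 to 35910000 reads that the FPKM steps give (39.3% to 43.5% of low values within 0.1 read of a whole step). The share of these reads that the counts held also differed between the iron and heme genes. Its median over libraries ran from 0.0828% for Trf to 3.18% for Slc40a1, with 0.512% for Fth1. An earlier account of these data found the counts to follow the opposite strand, which was also a reason to use the FPKM. That account was not tested here, nor was why the counts are low and uneven. Calls made or lost on the counts therefore cannot decide whether a difference in FPKM holds.

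FPKM were divided by TMM factors (edgeR 4.0.16, unweighted). The 11952 genes that reached an FPKM of 1 in 3 or more libraries were fitted in R 4.3.3 by limma 3.58.1 with a trend, on log2(FPKM + 1), a mean per culture, 9 libraries and 6 residual degrees of freedom, adjusted by Benjamini-Hochberg over all of them. Log2 fold changes understate those of low genes. Ratios were tested by exact permutation (scipy 1.17.1). Scripts were tested on simulated data.

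Named are all 9 genes and, per pathway list, up to 4 called genes of largest change whose higher culture averaged 5 or more; of the likeness search, the nearest 2 genes that reach a mean of 20. Hepatocyte, erythroid and other markers are given as levels. Members and lists were chosen with earlier results of these data known, and the 1.5-fold test was added after seeing the data. List symbols were matched by name, 3 of them under older names. Alternatives were other scalings, filters and pseudocount, 6 libraries, a replicate block, edgeR and DESeq2 1.42.0 on the counts, and leaving out each library.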

Additional observations from a re-analysis of the deposited data

How the results depend on the processing

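Over scalings, filters, the pseudocount of 0.1, the replicate block and the fit on 6 libraries, the count of the 9 genes called stayed within 1.5 times of the main one. Against a 1.5-fold change 4, 3 and 4 of them were called in FLM_G against BMM, FLM_M against BMM and FLM_G against FLM_M, edgeR on the counts called 5, 3 and 5, and DESeq2 on the counts 4, 1 and 5. Of the 47 further iron genes the 1.5-fold test called 13, 4 and 14, edgeR on the counts 14, 5 and 12, and DESeq2 11, 5 and 7; the counts of all genes called by edgeR were 2458, 1300 and 2855 and by DESeq2 2195, 838 and 2628. Why the count table gave fewer calls was not tested. Leaving out each library in turn gave 7 to 9, 8 to 9 and 8 to 9 of the 9 genes, and 32 to 37, 20 to 27 and 30 to 33 of the others.

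Signs changed as follows where the main or the alternative result was called. Changes of sign between results that were both not called are left out. Where no reason is given the cause was not tested. In FLM_G against BMM, Slc11a2 was -0.13 and Pcbp2 -0.35 without scaling; with quantile normalization Ftl1 was -0.80 and Pcbp2 -0.25; Pcbp2 was -0.79 by edgeR and -0.84 by DESeq2 on the counts. In FLM_M against BMM, Tfrc was 0.44 without FLM_M replicate 2 and 1.10 by edgeR, Ireb2 0.50 by edgeR and 0.46 by DESeq2, and Abcb10 0.80 and 0.74. In FLM_G against FLM_M without scaling, Slc48a1 was -0.30, Lrp1 -0.39, Blvrb -0.36, Blvra -0.37, Ireb2 -0.20 and Mafk -0.23; with quantile normalization Slc48a1 was -0.17 and Ftl1 -0.53; on the counts Slc48a1 was -0.18 by edgeR and -0.16 by DESeq2, and Ireb2 -0.0023 by DESeq2. Without scaling all genes split 2081 higher and 6775 lower in FLM_G against BMM, 3323 and 2240 in FLM_M against BMM, and 2218 and 7075 in FLM_G against FLM_M.

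The replicate numbers did not pair the libraries (correlations of same-numbered deviations from -0.077 to 0.090). With the replicate block 8, 8 and 8 of the 9 genes were called, and the call lost was Slc48a1 in FLM_G against FLM_M (adjusted p = 0.0707).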

Other observations

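Several further genes of iron handling were low or listed at 0, and those given here were chosen after their values were seen. They do not stand for heme recycling as a whole, since Hmox1 and Slc48a1 had the far higher levels given above. Cd163, the scavenger receptor for hemoglobin bound to haptoglobin, was listed at 0 in every FLM_G library and had 0 to 0.013 scaled FPKM in FLM_M and 0.683 to 0.720 in BMM. Spic, the transcription factor of red pulp macrophages, had 0.970 to 2.84 in FLM_G, 0.0067 to 0.013 in FLM_M and 0.099 to 0.254 in BMM. Lcn2, which binds bacterial siderophores, was listed at 0 in FLM_G and had 1.24 to 1.57 in FLM_M and 0.060 to 0.111 in BMM. The metal importer Slc39a8 had 0.848 to 1.00 in FLM_G, 3.03 to 3.45 in FLM_M and 3.54 to 3.96 in BMM. Hamp and Hamp2, which encode hepcidin, and Bmp6, Tmprss6, Hjv and Ftmt were listed at 0 in all 9 libraries. An FPKM of 0 can be a failed estimate.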
